A study of Mus musculus with 16 samples.

Results

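The amino acid response genes under ATF4 were followed across 2 mouse mammary carcinoma cell lines and 2 treatments. The members were a list of 36 symbols, and all 36 were mapped to Ensembl GRCm38 gene identifiers among the 33072 genes of the table. RNA sequencing had been performed on 4T1 cells, which are metastatic, and on 67NR cells, which are not. Both lines come from the same spontaneous BALB/c mammary tumor, each is a single line, and all cells grew in DMEM with 10% FBS. In each line, 4 biological replicates were treated for 24 h with 15 µM CIX, an inhibitor of cPLA2α, and 4 replicates received vehicle (DMSO), which gave 16 samples in all. The samples keep the numbers of their labels (67NR vehicle 1, 5, 9 and 13, 67NR CIX 2, 6, 10 and 14, 4T1 vehicle 3, 7, 11 and 15, 4T1 CIX 4, 8, 12 and 16).

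Cells that run short of amino acids, or whose endoplasmic reticulum, mitochondria or heme supply is disturbed, activate kinases that phosphorylate the translation factor eIF2α. General translation then slows, while the mRNA of the transcription factor ATF4 is translated more. ATF4 binds with C/EBP proteins to C/EBP-ATF response elements and drives genes for the uptake, synthesis and use of amino acids, together with feedback genes such as Trib3 and Ppp1r15a and the proapoptotic factor Ddit3 (CHOP). Because ATF4 itself is set mainly at translation, its mRNA need not follow the activity of the protein.

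The core of the response element, TGATGNAA, was searched on both strands of the RefSeq promoter windows of GRCm38.p6, which hold 250 bases before and 50 bases after a start site. A window was present for 31 members (Eif4ebp1, Aldh1l2, Cth, Slc7a5 and Slc1a5 had none), and 10 of them (32.3%) held the core, compared with 4.51% of the 27025 genes that have a window. The 10 genes were Atf3, Jdp2, Nupr1, Trib3, Chac1, Vldlr, Asns, Pck2, Pycr1 and Slc1a4. Windows of 30 bases are printed for 6 of them, with at least 1 from each role group that held the core, on the strand of the gene and with the core in capitals. In Chac1, Pck2 and Slc1a4 the core lies on the opposite strand, so that its reverse complement is read here.
Pck2: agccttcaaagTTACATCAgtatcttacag
Pycr1: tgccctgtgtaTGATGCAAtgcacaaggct
Asns: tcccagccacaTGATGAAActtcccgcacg
Chac1: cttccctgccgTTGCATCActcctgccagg
Jdp2: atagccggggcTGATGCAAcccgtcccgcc
Slc1a4: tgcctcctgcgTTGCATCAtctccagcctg
The windows of Pck2 (chr14:55540152-55540181, plus strand), Pycr1 (chr11:120643833-120643862, minus strand) and Chac1 (chr2:119351038-119351067, plus strand) lie upstream of the genes as GENCODE vM21 annotates them. Those of Asns (chr6:7693214-7693243, minus strand) and Slc1a4 (chr11:20332699-20332728, minus strand) overlap an annotated exon at the 5′ end. That of Jdp2 (chr12:85599372-85599401, plus strand) belongs to another start site of the gene and lies in an intron of the longer transcript. The core began 103 bases before the start in Pck2 and in Pycr1, 23 in Asns, 193 in Chac1, 33 in Jdp2 and 4 in Slc1a4. A match describes the letters of the window, and binding was not measured.

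The depth of the samples lay between 21715700 and 29450629 estimated counts, and the detection floor of 3 counts amounted to 0.102 to 0.138 CPM. This floor covers counting error only. Principal component 1 (93.9% of the variance) separated the lines and component 2 (2.11%) separated CIX from vehicle in 4T1 cells. The 5 epithelial markers summed to between 3390 and 3884 CPM in 4T1 vehicle samples and between 4003 and 4277 CPM after CIX, and to at most 6.18 CPM in 67NR cells. The 5 mesenchymal markers summed to between 2485 and 3300 CPM in 4T1 vehicle samples and between 4307 and 5210 CPM after CIX, and in 67NR cells to between 5800 and 6706 and between 8897 and 9775 CPM. Markers thus moved with CIX in the same samples as the members: in 4T1 cells Vim was called higher by 1.24 on the log2 scale (limma-voom adjusted p = 4.25e-05) and Epcam lower, with a log2 fold change of -0.78 (adjusted p = 1.27e-04). The other 4 epithelial markers were not called, with positive values for Krt7 (0.45), Krt8 (0.43) and Krt18 (0.14) and a negative value for Cdh1 (-0.29). The response of Vim was called larger in 4T1 than in 67NR cells, by 0.66 (adjusted p = 2.64e-04). Of 6 leukocyte markers, Adgre1 was at 0 in every sample, Ptprc reached at most 1.44 CPM, and their sum of 7.84 to 198 CPM came from Cd68, which was called higher after CIX in both lines. With samples of consecutive numbers as a block, a setting added after the data were seen, 0 genes were called in 67NR cells. The call of Cd68 there was thus lost. The part of these markers in the members' values was not tested. The 3 endothelial markers summed to at most 2.69 CPM. Levels below are CPM after TMM scaling (counts scaled for depth and composition), with the mean and SD over n = 4 samples. Tests are limma-voom fits over all genes with a TPM of at least 1 in enough samples, and calls were made at an adjusted p (Benjamini-Hochberg) below 0.001. In these bulk samples a smaller number of responding cells and less RNA per cell cannot be told apart.

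A sample of the treated 4T1 cells stood apart in these genes. Relative to the vehicle mean of the line on the log2(CPM + 0.5) scale, the median difference of the 34 members tested was 0.646, 0.857 and 0.735 in 4T1 CIX samples 8, 12 and 16, and 0.0935 in sample 4. Sample 4 was the lowest of the CIX samples in 27 of the 34 members (79.4%), against 34.9% of all genes tested in 4T1 cells. Its estimated count total and its share of mitochondrially encoded counts (0.733%) were within the ranges of the other samples, and on component 2 it lay at -12.5, where the other CIX samples lay between -17.3 and -15.4. Sample 12 stood apart in the other direction and was the highest in 24 of the 34 members (70.6%, against 24.7% of all genes tested). What set these samples apart was not tested. Over the genes tested in 4T1 cells, deviations from the group mean correlated by 0.36 between CIX sample 4 and vehicle sample 3. Values without sample 4 are given for the members whose calls changed without it and for some others. In 67NR cells, CIX sample 10 was the highest of its group in 24 of 33 members (72.7%), against 23.4% of all genes tested, and sample 2 the lowest in 20 (60.6%, against 24.5%). The mitochondrial share, a sign of RNA quality, was lowest of their groups in these high samples, at 0.376% in 67NR CIX sample 10 (others 1.14% to 1.43%) and 0.435% in 4T1 CIX sample 12 (others 0.640% to 0.812%). In 4T1 CIX sample 16, with a median difference of 0.735, it was 0.812%. Vehicle samples had 1.34% to 1.76% in 67NR cells, with 3 of the 4 above every CIX sample, and 0.498% to 0.926% in 4T1 cells. The part of the mitochondrial share in the members' values was not tested, and the paper reports high RNA integrity numbers for this RNA.

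**Figure D1:**
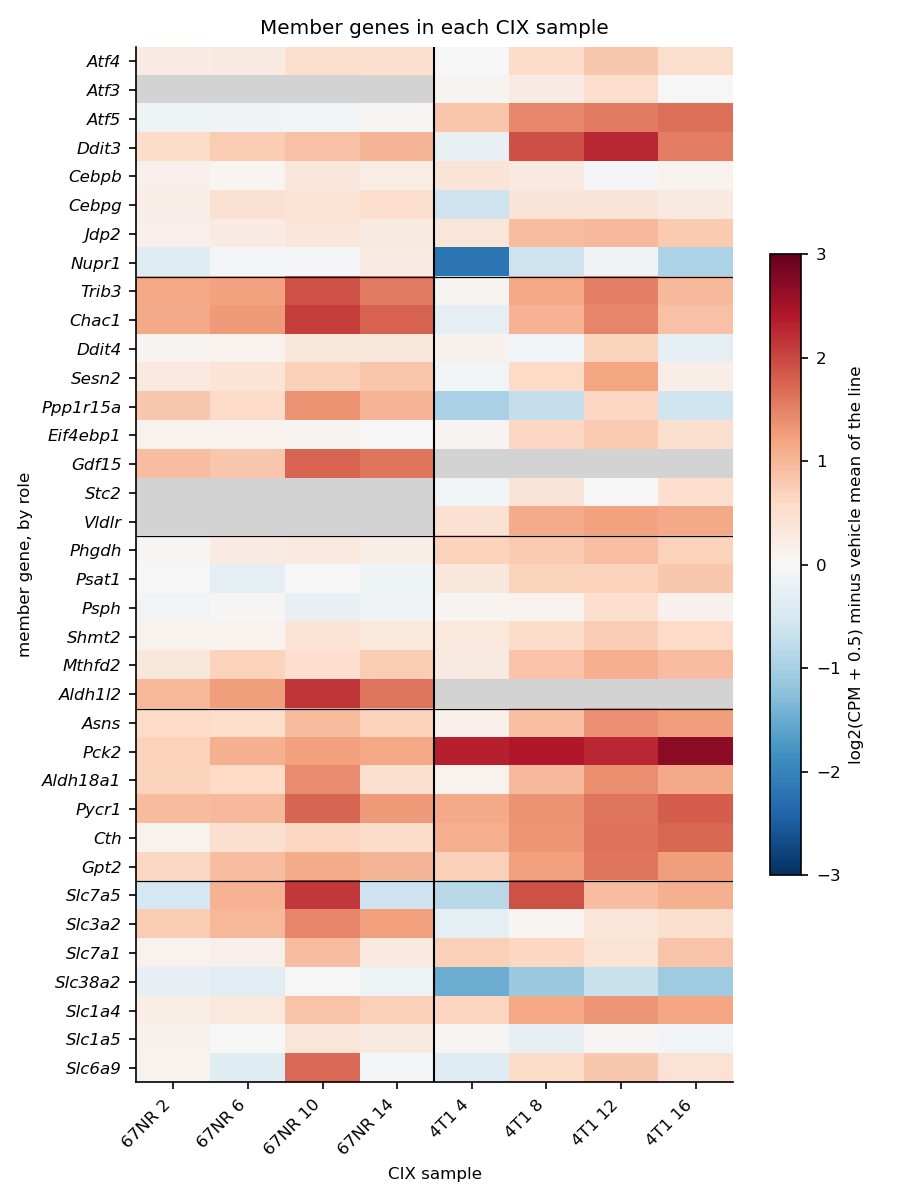
Difference of each CIX sample from the vehicle mean of its own cell line for the 36 members, ordered by role (rows) and sample (columns), in log2(CPM + 0.5) from blue (lower) to red (higher), with the color scale ending at 3 in either direction and grey for members not tested in a line. The column of 4T1 sample 4 is paler than those of samples 8, 12 and 16 (medians of 0.0935 against 0.646 to 0.857), while Pck2, Pycr1 and Cth are red and Slc38a2 blue in every 4T1 column.

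CIX was compared with vehicle in each line to see which members follow the inhibitor. In 4T1 cells, 34 members were tested, and 4 rose: Phgdh, Pck2, Pycr1 and Cth, which encode enzymes of serine, phosphoenolpyruvate, proline and cysteine synthesis. Slc38a2, a transporter of small neutral amino acids, fell. These 5 compare with 9.34% of the 11659 genes tested that were called in either direction, 5.35% higher and 3.99% lower. The median log2 fold change of the members was 0.622, that of all tested genes -0.00688, and 30 of the 34 members had a positive value. At an adjusted p below 0.05, 17 members were higher and 1 was lower, where 21.9% and 20.8% of all genes were. All CIX samples lay above all vehicle samples in 12 members (21.3% of all genes), and below in 1 (18.7%).

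The count in 4T1 cells depended on the samples included. Sample 4 was singled out by the members' own values, so larger values and more calls without it follow in part from that choice. The same holds for the values without sample 4 that are given for single members below. Without CIX sample 4, 13 members were called higher and 1 lower, where 5.11% and 3.74% of the 11883 genes tested were, and all 5 of the members called with every sample were among these. Atf5, Ddit3, Jdp2, Trib3, Chac1, Psat1, Asns, Aldh18a1 and Slc1a4 were the members called in addition, and the median log2 fold change over the members was 0.68. Leaving out another CIX sample gave 1 call (sample 8) or 3 (samples 12 and 16), and leaving out a vehicle sample gave 3 (sample 3), 1 (samples 7 and 15) or 2 (sample 11), while the share called of all genes lay between 2.44% and 6.12% in these 7 fits. The call that held in all 8 of these fits was Pck2. DESeq2's Wald test called 16 members, where it called 26.6% of all genes, and edgeR's quasi-likelihood test called 6 (8.86% of all genes). Without adjustment 21 members had a p below 0.05, 20 of them higher (51.2% of all genes in either direction).

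In 67NR cells, 33 members were tested and limma-voom called 0, against 0.389% of the 11560 genes tested (0.182% higher and 0.208% lower). Their values were mostly positive all the same, with 28 of 33 above 0 and a median log2 fold change of 0.424 (all genes -0.00628). At an adjusted p below 0.05, 16 members were higher and 0 lower, where 8.51% and 9.26% of all genes were. Without adjustment 20 members had a p below 0.05, 19 of them higher (32.8% of all genes in either direction). The DESeq2 test at the same threshold of 0.001 called 14 members (9.00% of all genes), all higher, and edgeR's quasi-likelihood test called 0 (0.398% of all genes). All 67NR CIX samples lay above all vehicle samples in 15 members (12.7% of all genes), and below in 0 (10.6%).

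**Figure D2:**
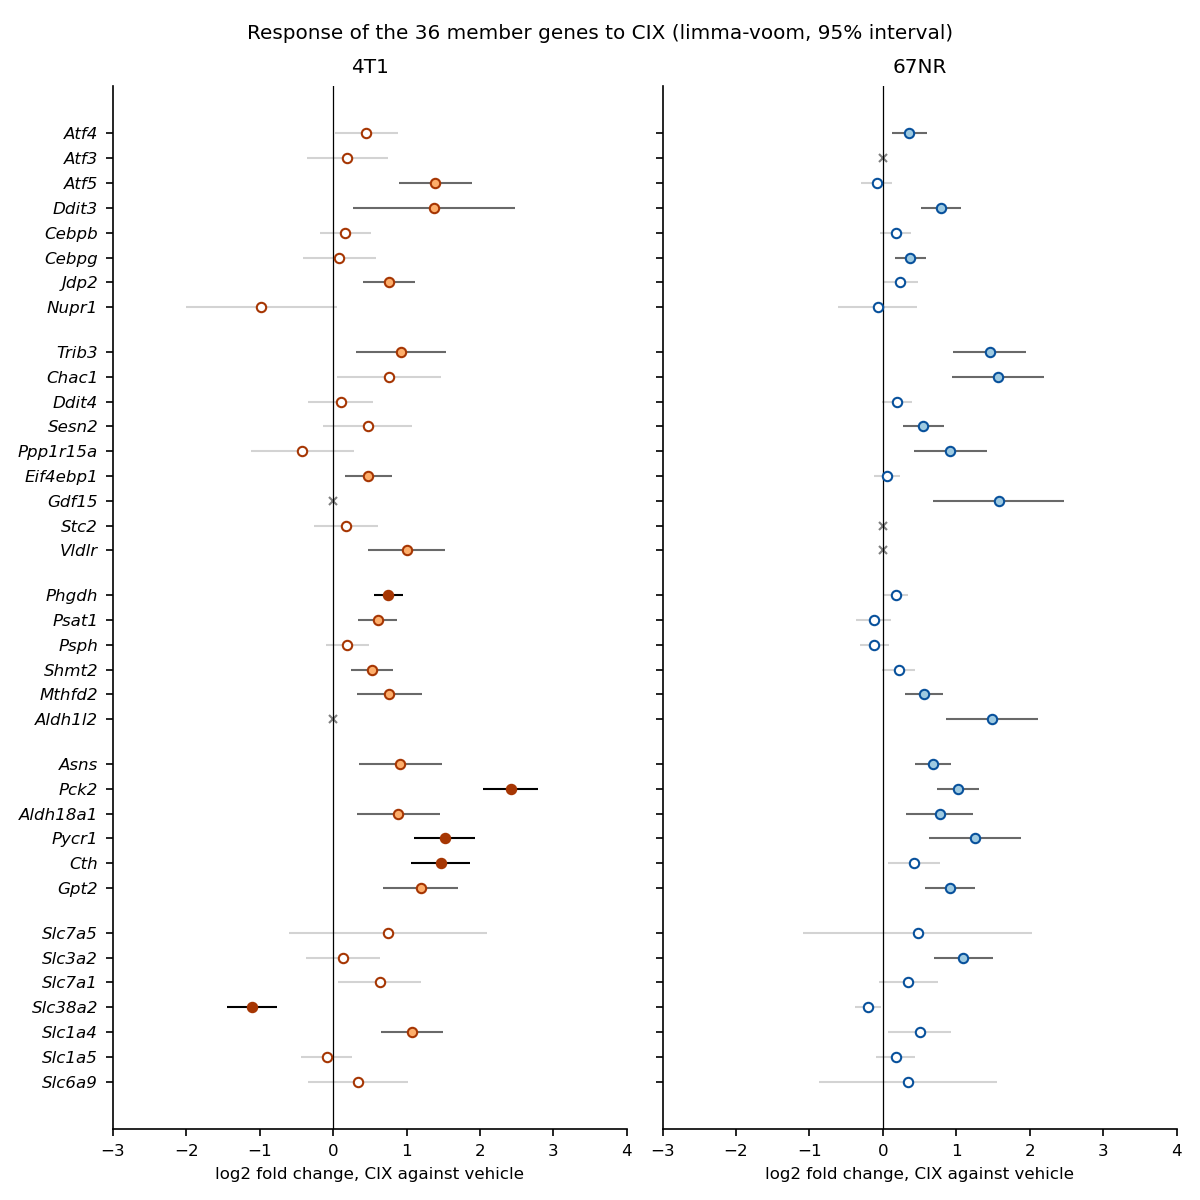
Log2 fold change of CIX against vehicle for the 36 members in 4T1 cells (left) and 67NR cells (right), with 95% intervals from limma-voom and n = 4 samples per group. Dark filled points were called at an adjusted p below 0.001, pale filled points passed 0.05, open points passed neither, and a grey cross at 0 marks a member not tested in that line. Pck2 lies furthest to the right in 4T1 cells at 2.42 and Slc38a2 furthest to the left at -1.10.

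The transcription factors include Atf4 itself (ENSMUSG00000042406, chromosome 15, 80255184 to 80257541). Atf4 was at 335, 225, 215 and 257 CPM in the 4T1 vehicle samples and at 252, 374, 444 and 366 CPM after CIX, with the lowest treated sample, 4, inside the vehicle range. In 67NR cells it was at 469, 360, 392 and 348 CPM with vehicle and at 461, 468, 560 and 548 CPM with CIX, and the groups overlapped through vehicle sample 1. Its log2 fold change was 0.45 in 4T1 cells (standard error, SE, 0.19, limma-voom Benjamini-Hochberg adjusted p = 0.0832) and 0.36 in 67NR cells (SE 0.10, adjusted p = 0.0435), neither of which was called. Without 4T1 CIX sample 4 the value was 0.61 (limma-voom adjusted p = 0.0131).

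Atf5 encodes a factor that, like ATF4, is regulated at translation and is linked to the mitochondrial stress response. In 4T1 cells Atf5 (ENSMUSG00000038539, chromosome 7, 44812256 to 44816658) was at 10.6, 9.73, 12.8 and 14.7 CPM with vehicle and at 21.3, 33.2, 35.9 and 38.4 CPM with CIX. The groups did not overlap, and sample 4 was the lowest treated value. In 67NR cells the level was far higher and the groups overlapped, with 369, 286, 281 and 276 CPM for vehicle and 277, 282, 284 and 308 CPM for CIX. In 4T1 cells the log2 fold change of 1.39 (SE 0.22, limma-voom adjusted p = 0.00111) was just outside the threshold, and in 67NR cells it was -0.09 (adjusted p = 0.562). The 4T1 call changed with the fit, since Atf5 was called by edgeR (adjusted p = 7.85e-04), by DESeq2, without the TPM filter, with all 16 samples in 1 fit, with sample quality weights and with samples of consecutive numbers as a block (adjusted p = 5.97e-04). Without sample 4 the 4T1 value was 1.57 (limma-voom adjusted p = 2.36e-04).

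Ddit3 is described here for its spread, a choice made after its values were seen. CHOP, its product, promotes cell death under lasting stress. Ddit3 was at 32.7, 50.3, 49.9 and 52.0 CPM in 4T1 vehicle samples and at 38.9, 175, 218 and 133 CPM after CIX, so that sample 4 stayed within the vehicle range while the other treated samples lay above it. Its log2 fold change in 4T1 cells came to 1.37 with all samples (SE 0.49, limma-voom adjusted p = 0.0472) and 1.90 without sample 4 (SE 0.21, adjusted p = 3.92e-04). In 67NR cells every CIX sample, from 83.7 to 116 CPM, lay above every vehicle sample, from 48.9 to 66.0 CPM (log2 fold change 0.79, adjusted p = 0.00385).

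With all samples limma-voom called 0 of the 8 transcription factors in 4T1 cells (9.34% of all genes) and 0 of 7 in 67NR cells (0.389%). Without adjustment 4 and 3 had a p below 0.05 (51.2% and 32.8% of all genes), edgeR called 1 and 0 (8.86% and 0.398%), and DESeq2 3 and 1 (26.6% and 9.00%). Jdp2, a repressor that binds the same kind of sites, averaged 18.7 ± 1.72 CPM with vehicle and 32.3 ± 5.88 CPM with CIX in 4T1 cells (log2 fold change 0.76, limma-voom adjusted p = 0.00459), and 0.89 on the log2 scale without sample 4 (adjusted p = 7.03e-04). Cebpb and Cebpg, partners of ATF4 on DNA, had log2 fold changes of 0.16 and 0.09 in 4T1 cells and 0.17 and 0.37 in 67NR cells. The intervals reached 0.35 and 0.50 to either side in 4T1 cells and 0.21 and 0.21 in 67NR cells. Without sample 4 the 4T1 values were 0.09 for Cebpb and 0.32 for Cebpg. Nupr1, a stress-induced chromatin protein, was the member of this group with a negative value in 4T1 cells, at 516 ± 270 CPM with vehicle and 272 ± 139 CPM with CIX (log2 fold change -0.98, adjusted p = 0.111), and -0.57 without sample 4. Atf3, itself a target of ATF4, was at 24.6 ± 9.79 and 27.3 ± 4.58 CPM in 4T1 cells and at most 0.178 CPM in 67NR cells, where it was not tested.

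**Figure D3:**
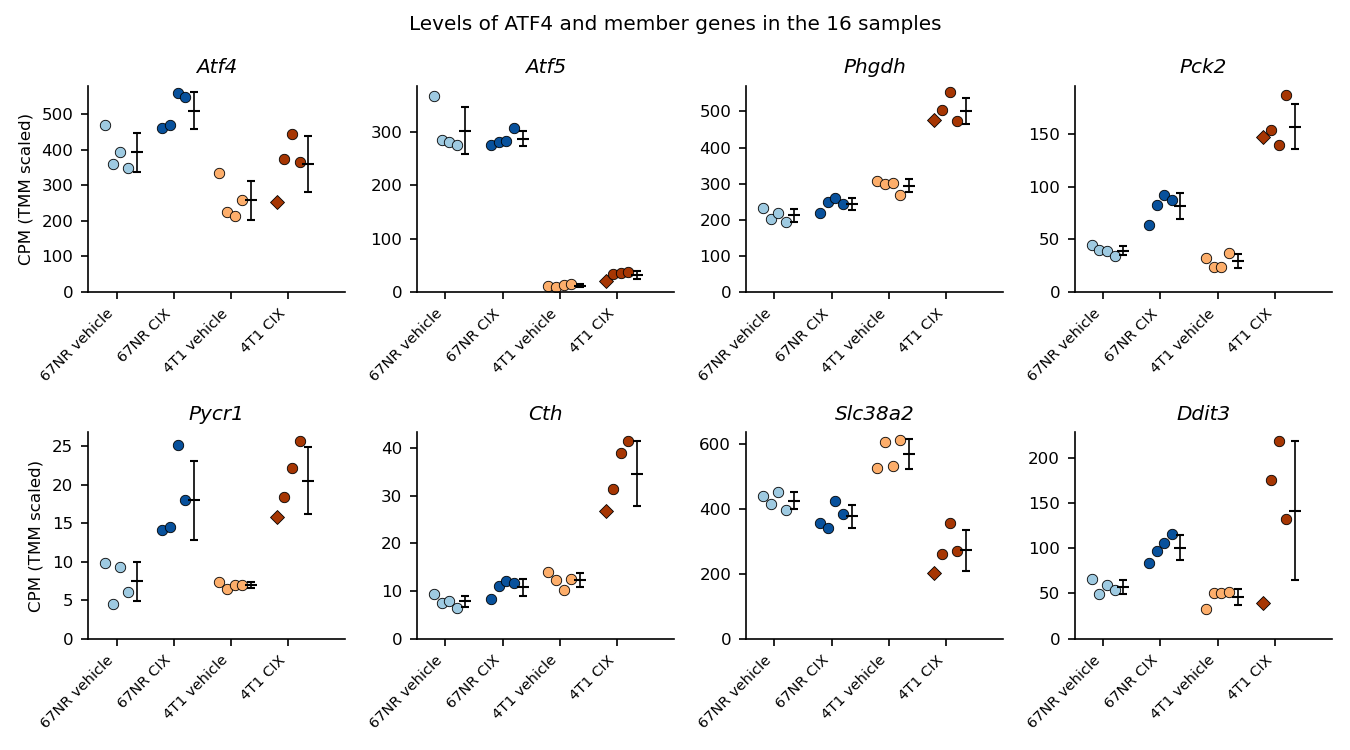
Level in CPM after TMM scaling of Atf4 and 7 other members in the 16 samples, by group (horizontal axis), with the mean and SD of n = 4 beside the points and 4T1 CIX sample 4 drawn as a diamond. For Ddit3 the diamond (38.9 CPM) lies among the vehicle samples and below the other treated samples (133 to 218 CPM), whereas for Pck2 it lies with them at 148 CPM.

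Of the stress effectors, secreted and surface products, limma-voom called 0 of 8 in 4T1 cells (9.34% of all genes) and 0 of 7 in 67NR cells (0.389%). Without adjustment 4 and 5 had a p below 0.05, all higher (51.2% and 32.8% of all genes in either direction). EdgeR called 0 in both lines (8.86% and 0.398% of all genes) and DESeq2 2 and 5 (26.6% and 9.00%). In 4T1 cells the counts of this group were thus near those over all genes. Trib3, a pseudokinase that inhibits AKT and feeds back on ATF4, averaged 76.1 ± 12.0 CPM with vehicle and 153 ± 56.0 CPM with CIX in 4T1 cells (log2 fold change 0.92, limma-voom adjusted p = 0.0228). Without sample 4 the value was 1.20 (adjusted p = 8.44e-04). In 67NR cells Trib3 was at 22.9 ± 5.91 and 64.1 ± 16.4 CPM, which gave 1.45 on the log2 scale (adjusted p = 0.00368), with no overlap of the groups. Chac1, which degrades glutathione, had a log2 fold change of 0.76 in 4T1 cells (adjusted p = 0.0765), 1.11 without sample 4 (adjusted p = 6.57e-04), and 1.57 in 67NR cells (adjusted p = 0.00696). Its 67NR samples lay between 6.72 and 12.2 CPM with vehicle and between 20.7 and 40.3 CPM with CIX.

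Ppp1r15a (GADD34), the subunit that directs a phosphatase to eIF2α, had values of different sign in the lines. In 67NR cells it was at 57.5 ± 17.1 CPM with vehicle and 109 ± 25.4 CPM with CIX (log2 fold change 0.92, limma-voom adjusted p = 0.0216), and the groups did not overlap. In 4T1 cells it was at 49.3 ± 9.13 and 40.5 ± 23.6 CPM (log2 fold change -0.42, adjusted p = 0.304), where sample 12 alone, at 75.7 CPM, lay above the vehicle samples. Without sample 4 the 4T1 value was -0.23 (limma-voom adjusted p = 0.577). Sesn2, which senses leucine and restrains mTORC1, had a log2 fold change of 0.47 in 4T1 cells (adjusted p = 0.186) and 0.55 in 67NR cells (adjusted p = 0.0183). Ddit4, another restraint on mTORC1, had 0.10 and 0.19, and Eif4ebp1, which holds back cap-dependent translation, 0.48 (adjusted p = 0.0238) and 0.05. For Eif4ebp1, 5.9% of its 31-base words occur in other genes, so its counts are less certain.

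Members of this group were also marked by the line that expressed them. Gdf15, a stress hormone, was at 1.21 ± 0.493 CPM with vehicle and 3.63 ± 1.32 CPM with CIX in 67NR cells (log2 fold change 1.57, limma-voom adjusted p = 0.0260), with no overlap. Its mean TPM in 67NR cells was 1.02 with vehicle, near the filter of 1, and 3.12 with CIX. Its entry into the test thus leaned on the CIX samples. In 4T1 cells it reached at most 0.161 CPM and was not tested. Vldlr, a lipoprotein receptor, was the reverse, with 8.95 ± 2.10 and 18.1 ± 4.00 CPM in 4T1 cells (log2 fold change 1.00, adjusted p = 0.00736) and at most 0.231 CPM in 67NR cells. Stc2, a secreted glycoprotein, was at 14.5 ± 3.19 and 16.6 ± 3.35 CPM in 4T1 cells (log2 fold change 0.18, adjusted p = 0.481), and at most 0.722 CPM in 67NR cells.

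Among the enzymes of serine, glycine and mitochondrial one-carbon metabolism, Phgdh was called in 4T1 cells, 1 of 5 tested (9.34% of all genes), and 0 of 6 in 67NR cells (0.389%). DESeq2 called 3 and 2 of them (26.6% and 9.00% of all genes). Phgdh encodes the first enzyme of serine synthesis from the glycolytic intermediate 3-phosphoglycerate. Phgdh (ENSMUSG00000053398, chromosome 3, 98313170 to 98339990) was at 308, 299, 302 and 267 CPM in the 4T1 vehicle samples and at 476, 503, 553 and 475 CPM after CIX. The treated samples all lay above the vehicle samples, sample 4 included. In 67NR cells the groups overlapped, at 233, 203, 219 and 194 CPM with vehicle and 220, 250, 260 and 243 CPM with CIX. The log2 fold change was 0.75 in 4T1 cells (SE 0.09, limma-voom adjusted p = 2.46e-04) and 0.18 in 67NR cells (SE 0.08, adjusted p = 0.144). The call was lost without vehicle sample 7 or 15 or CIX sample 8, at 0.76, 0.70 and 0.75. Counts of Phgdh are uncertain, because 55.2% of its 31-base words occur in other genes, and Gm7901 alone shares 44.8%. When the 11 genes that each share at least 5% were added to Phgdh, a setting chosen after the data were seen, the log2 fold change in 4T1 cells was 0.73 (adjusted p = 1.80e-04).

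The next steps of serine synthesis had smaller values, and the steps were not tested against each other. Psat1, the aminotransferase, was at 260 ± 25.3 and 403 ± 52.9 CPM in 4T1 cells (log2 fold change 0.61, limma-voom adjusted p = 0.00320), with no overlap, and 0.70 without sample 4 (adjusted p = 8.13e-04). In 67NR cells it was at 312 ± 43.1 and 289 ± 27.9 CPM (log2 fold change -0.13, adjusted p = 0.450). Psph, the phosphatase of the last step, had 0.19 in 4T1 cells (adjusted p = 0.265) and -0.12 in 67NR cells (adjusted p = 0.381). The mitochondrial enzymes that pass serine carbon to folate were positive in both lines. Shmt2 had a log2 fold change of 0.53 in 4T1 (adjusted p = 0.00942) and 0.21 in 67NR cells (adjusted p = 0.178), and Mthfd2 0.76 (adjusted p = 0.0121) and 0.56 (adjusted p = 0.0123). The CIX samples of Mthfd2 lay above the vehicle samples in both lines. Aldh1l2, which oxidizes formyl-folate in mitochondria, was expressed in 67NR cells, where it went from 55.5 ± 16.4 to 160 ± 57.0 CPM (log2 fold change 1.49, adjusted p = 0.00864). In 4T1 cells it was between 0.179 and 0.687 CPM and was not tested.

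The group with the largest median in 4T1 cells was that of the other amino acid enzymes, at 1.33 on the log2 scale for 6 genes, all positive and all past an adjusted p of 0.05 (21.9% of all genes were higher at 0.05). In 67NR cells the median of the 6 was 0.843, and 5 were past 0.05 (8.51% of all genes higher). Limma-voom called 3 of the 6 in 4T1 cells (9.34% of all genes) and 0 in 67NR cells (0.389%), and DESeq2 6 and 5 (26.6% and 9.00%). Pck2, the mitochondrial phosphoenolpyruvate carboxykinase, had the largest value of any member. Pck2 (ENSMUSG00000040618, chromosome 14, 55540266 to 55551242) was at 32.8, 23.9, 23.5 and 37.5 CPM in 4T1 vehicle samples and at 148, 154, 140 and 188 CPM after CIX, a wide gap with no overlap. In 67NR cells it was at 44.3, 39.8, 38.8 and 34.5 CPM with vehicle and at 64.0, 82.6, 92.3 and 87.6 CPM with CIX, again without overlap but with a smaller gap. CIX and vehicle differed by a log2 fold change of 2.42 in 4T1 cells (SE 0.17, limma-voom adjusted p = 4.25e-05) and 1.02 in 67NR cells (SE 0.12, adjusted p = 0.00169). In 67NR cells Pck2 was called by DESeq2 (adjusted p = 2.94e-12), with all 16 samples in 1 fit, with sample quality weights, and when CIX sample 2 was left out, with 1.15 (adjusted p = 6.01e-04).

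Pycr1 makes proline in mitochondria. In 4T1 cells Pycr1 (ENSMUSG00000025140, chromosome 11, 120635712 to 120643769) was at 7.41, 6.42, 7.01 and 6.98 CPM with vehicle and at 15.8, 18.4, 22.2 and 25.7 CPM with CIX. In 67NR cells it was at 9.78, 4.54, 9.31 and 6.08 CPM with vehicle and at 14.2, 14.5, 25.2 and 18.1 CPM with CIX. The groups did not overlap in either line, although the 67NR samples were more spread. Between the groups of 4T1 cells the log2 fold change came to 1.52 (SE 0.18, limma-voom adjusted p = 3.20e-04), and between those of 67NR cells to 1.25 (SE 0.28, adjusted p = 0.0159). Of the 8 fits that left out a 4T1 sample, 2 called Pycr1, with log2 fold changes between 1.42 and 1.64 in all 8.

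Cth, cystathionine gamma-lyase, makes cysteine by transsulfuration. Cth (ENSMUSG00000028179, chromosome 3, 157894248 to 157925077) was at 13.9, 12.4, 10.2 and 12.6 CPM in 4T1 vehicle samples and at 26.7, 31.4, 39.0 and 41.5 CPM after CIX, without overlap. In 67NR cells the vehicle samples were at 9.38, 7.43, 7.84 and 6.50 CPM and the CIX samples at 8.28, 10.9, 12.1 and 11.6 CPM, and sample 2 lay inside the vehicle range. This gave a log2 fold change of 1.47 in 4T1 (SE 0.18, limma-voom adjusted p = 3.20e-04) and 0.42 in 67NR cells (SE 0.16, adjusted p = 0.0965). Of the 8 fits without a sample, 2 called Cth, with values between 1.38 and 1.58 in all 8.

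The remaining enzymes of the group were positive in both lines without being called. Asns, asparagine synthetase and the best known target of the pathway, was at 158 ± 24.4 and 314 ± 104 CPM in 4T1 cells (log2 fold change 0.91, limma-voom adjusted p = 0.0168). Sample 4, at 174 CPM, lay inside the vehicle range of 127 to 185 CPM and the other treated samples between 296 and 408 CPM. Without it the value was 1.17 (adjusted p = 6.78e-04). In 67NR cells Asns went from 93.7 ± 6.79 to 153 ± 20.9 CPM (log2 fold change 0.68, adjusted p = 0.00442), without overlap. Aldh18a1, which starts proline synthesis, had 0.89 (1.15 without sample 4, adjusted p = 5.46e-04) and 0.77, and Gpt2, the mitochondrial alanine aminotransferase, 1.20 (adjusted p = 0.00281) and 0.91 (adjusted p = 0.00478).

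Of the 7 amino acid transporters, Slc38a2 (SNAT2) was called, and it fell in 4T1 cells, where 3.99% of all genes were called lower and 9.34% in either direction. In 4T1 cells edgeR called 1 of the 7 (8.86% of all genes), DESeq2 2 (26.6%), and without adjustment 3 had a p below 0.05 (51.2%). In 67NR cells limma-voom and edgeR called 0 (0.389% and 0.398% of all genes), DESeq2 1 (9.00%), and without adjustment 3 had a p below 0.05 (32.8%). Slc38a2 (ENSMUSG00000022462, chromosome 15, 96687392 to 96699730) is usually counted among the genes that amino acid shortage induces. It was at 526, 606, 532 and 611 CPM with vehicle and at 203, 260, 355 and 270 CPM with CIX in 4T1 cells, without overlap, and at 439, 415, 453 and 395 CPM and 357, 341, 424 and 384 CPM in 67NR cells, with overlap. Its log2 fold change came to -1.10 in 4T1 (SE 0.15, limma-voom adjusted p = 5.37e-04) and -0.20 in 67NR cells (SE 0.08, adjusted p = 0.111). Without 4T1 sample 4 it was -0.97 (adjusted p = 6.22e-04), and 2 of the 8 fits without a sample called it, all with negative values.

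The heavy and light chains of the transporter for large neutral amino acids differed in spread, and their responses were not tested against each other. Slc3a2 (CD98), the heavy chain, had a log2 fold change of 1.09 in 67NR cells, from 124 ± 22.2 to 270 ± 56.8 CPM (limma-voom adjusted p = 0.00473), without overlap, and of 0.14 in 4T1 cells, from 312 ± 89.8 to 343 ± 78.7 CPM (adjusted p = 0.644). Slc7a5 (LAT1), the light chain, varied widely among samples of the same group, from 120 to 423 CPM in 4T1 vehicle and from 129 to 873 CPM in 4T1 CIX samples, and from 63.1 to 323 and 83.4 to 566 CPM in 67NR cells. Its intervals extended 1.35 and 1.56 log2 units to either side of 0.75 and 0.47, so that a change of 1 log2 unit was not detectable at this spread. Slc6a9, a glycine transporter, was spread in the same way, with intervals of 0.68 and 1.21 around 0.34 and 0.34. Without sample 4 the 4T1 values were 0.29 for Slc3a2, 1.28 for Slc7a5 and 0.59 for Slc6a9. Slc1a4, a carrier of alanine, serine and cysteine, had 1.07 in 4T1 cells (adjusted p = 0.00184), 1.21 without sample 4 (adjusted p = 6.22e-04) and 0.50 in 67NR cells. Slc7a1, for cationic amino acids, had 0.64 (adjusted p = 0.0670) and 0.35, and Slc1a5, the glutamine transporter ASCT2, -0.08 and 0.17.

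Whether the response differed between the lines was tested with an interaction term over all 16 samples, in which all 36 members entered. Of these, 31 were tested in both lines, while Atf3, Stc2 and Vldlr (low in 67NR cells) and Gdf15 and Aldh1l2 (low in 4T1 cells) entered through the line that expresses them. The response of these 5 in the other line could not be measured at this depth (SE of the difference from 0.98 to 1.30), so that their missing calls say nothing on a difference. Of the 31, Atf5 and Pck2 responded more in 4T1 cells and 0 were called less, where limma-voom called 7.86% of the 12605 genes tested, 4.81% higher and 3.05% lower. Without adjustment 7 members had a p below 0.05 with a larger and 3 with a smaller response in 4T1 cells (39.1% of all genes), edgeR called 2 (8.03%), and DESeq2 called 5 with a larger and 1 with a smaller response (15.7%). The difference was 1.48 for Atf5 (SE 0.24, limma-voom adjusted p = 3.25e-04) and 1.39 for Pck2 (SE 0.22, adjusted p = 2.59e-04). Both were also called without 4T1 CIX sample 4, at 1.66 and 1.42. When samples were left out 1 at a time, Pck2 passed in 16 of 16 fits and Atf5 in 15, the exception being the fit without 4T1 vehicle sample 7 (1.38). At an adjusted p below 0.05 (29.4% of all genes in either direction) the larger 4T1 responses also included Phgdh (0.57, adjusted p = 0.00136), Psat1 (0.73, adjusted p = 0.00413) and Cth (1.04, adjusted p = 0.00699). Phgdh was called with samples of consecutive numbers as a block (limma-voom adjusted p = 9.79e-04). DESeq2 and the fit with sample quality weights called Phgdh, Cth and, with a negative value, Slc38a2. In the limma-voom interaction Slc38a2 (-0.91, adjusted p = 0.00138), Ppp1r15a (-1.34, adjusted p = 0.0222) and Slc3a2 (-0.96, adjusted p = 0.0292) passed 0.05 with a negative value. Trib3 and Chac1 gave -0.53 and -0.81 with an adjusted p of 0.342 and 0.262. Without 4T1 CIX sample 4, Trib3 and Chac1 were at -0.25 and -0.46, and Slc3a2 no longer passed 0.05 (-0.81, adjusted p = 0.0514). Ddit3 (1.11, adjusted p = 0.00454), Jdp2 (0.65, adjusted p = 0.00552) and Eif4ebp1 (0.56, adjusted p = 0.0037) then passed it. For Atf4 the difference was 0.09, with an interval of 0.49 to either side, and 0.25 without 4T1 CIX sample 4 (limma-voom adjusted p = 0.379).

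The untreated lines were compared in the vehicle samples to show the levels from which the responses started. Of 31 members tested, 11 were higher and 3 lower in 4T1 cells, in a comparison that called 40.0% of the 11040 genes tested (20.4% higher and 19.6% lower). Nupr1 (log2 difference 3.65) and Chac1 (3.34) had the largest positive values, followed by Trib3 (1.73), Psph (1.42), Gpt2 (1.42), Slc3a2 (1.29) and Ddit4 (1.28). Aldh18a1 (0.95), Cebpb (0.90), Asns (0.74) and Phgdh (0.46) were the others. The call of Phgdh was lost when the genes sharing its words were added (0.42, limma-voom adjusted p = 0.00135), without the TPM filter (0.44, adjusted p = 0.00244), and when vehicle sample 1, 5, 7, 9, 11 or 13 was left out (0.38 to 0.50). With samples of consecutive numbers as a block, a setting added after the data were seen, 7 of the 14 calls were lost (Cebpb, Eif4ebp1, Phgdh, Asns, Aldh18a1, Gpt2 and Slc3a2, with adjusted p between 0.0013 and 0.00277), where 27.2% of all genes were called. Atf5 (-4.68), Sesn2 (-1.30) and Eif4ebp1 (-0.58) were lower in 4T1 cells. Atf4 was lower as well by value, at -0.63, without being called (adjusted p = 0.00523). Chac1 and Trib3 thus had a higher level in untreated 4T1 cells (94.8 ± 5.91 and 76.1 ± 12.0 CPM) than in CIX treated 67NR cells (29.1 ± 9.04 and 64.1 ± 16.4 CPM), although for Trib3 the samples of these groups overlapped. Atf3, Stc2 and Vldlr were near 0 in 67NR cells, and Gdf15 and Aldh1l2 near 0 in 4T1 cells.

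**Figure D4:**
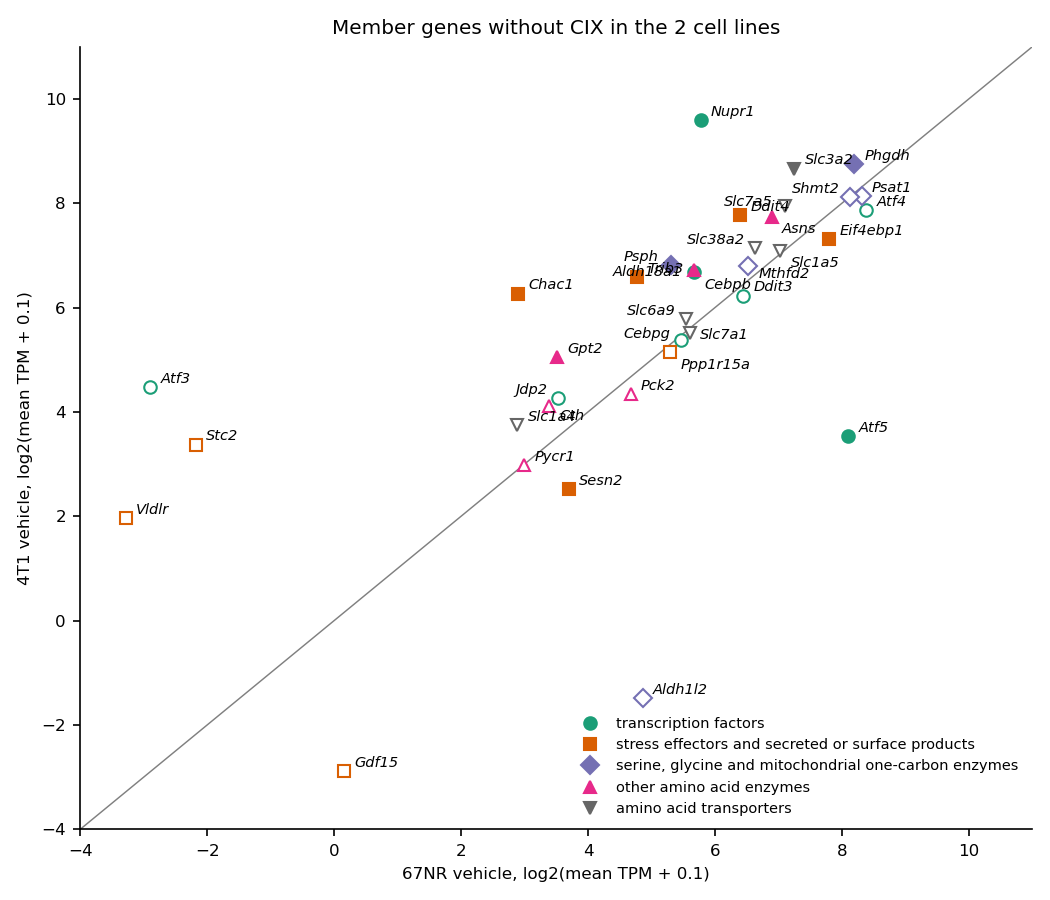
Mean TPM of the 36 members in the vehicle samples of 67NR cells (horizontal axis) and 4T1 cells (vertical axis), both as log2(TPM + 0.1), with n = 4 samples each, symbols by role, filled where the lines differed at an adjusted p below 0.001, and a line of equal level. Atf5 and Aldh1l2 lie far below the line, Nupr1, Chac1, Atf3, Stc2 and Vldlr far above it.

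Per transcript length, approximated as TPM, the members covered a wide range. In 4T1 vehicle samples Nupr1 had the highest mean at 772 ± 378 TPM, followed by Phgdh at 431 ± 17.1 and Slc3a2 at 407 ± 108 TPM, whose values overlap with that of Nupr1 within the SD. In 67NR vehicle samples Atf4 (335 ± 51.1 TPM), Psat1 (318 ± 51.4), Phgdh (294 ± 30.3), Shmt2 (280 ± 36.8) and Atf5 (275 ± 42.3) were at the top and did not differ beyond their spread. The genes that CIX called in 4T1 cells started low, with Pck2 at 20.3 ± 5.37, Pycr1 at 7.79 ± 0.514 and Cth at 17.3 ± 2.50 TPM, except Phgdh and Slc38a2.

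Genes around the members were counted from 3 further lists. Of 20 genes upstream of ATF4 (eIF2α kinases, eIF2 and eIF2B subunits and their regulators), 1 was higher and 2 were lower in 4T1 cells (5.35% and 3.99% of all genes). Eif2b3, a subunit of the exchange factor that phosphorylated eIF2 inhibits, was at 8.05 ± 1.47 and 23.4 ± 1.62 CPM (log2 fold change 1.54, limma-voom adjusted p = 1.15e-04). Eif2ak2 (PKR), the kinase that answers double-stranded RNA, was at 117 ± 16.3 and 59.5 ± 4.62 CPM (-0.98, adjusted p = 3.24e-04), and Impact, an inhibitor of the kinase GCN2, at 90.9 ± 6.59 and 45.6 ± 7.76 CPM (-1.03, adjusted p = 4.33e-04). In 4T1 cells DESeq2 called 7 of the 20 (26.6% of all genes), and without adjustment 9 had a p below 0.05 (51.2%). In 67NR cells limma-voom and edgeR called 0 of the 20 (0.389% and 0.398% of all genes) and DESeq2 1 (9.00%). Without adjustment 6 had a p below 0.05 there (32.8%). The interaction was called for Eif2b3 (1.25, adjusted p = 7.83e-04) and Impact (-0.94, adjusted p = 7.37e-04).

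Of 15 other targets of ATF4, mainly tRNA synthetases, 13 were tested in 4T1 cells, 10 with a positive value, and Lars (1.11, limma-voom adjusted p = 5.18e-04) and Yars (1.03, adjusted p = 9.81e-04) were called higher (5.35% of all genes). DESeq2 called 4 of the 13 (26.6% of all genes), and without adjustment 8 had a p below 0.05 (51.2%). In 67NR cells 13 of 14 were positive. Limma-voom and edgeR called 0 of them (0.389% and 0.398% of all genes) and DESeq2 2 (9.00%). Without adjustment 10 had a p below 0.05 (32.8%), with Sars, for seryl-tRNA, at 0.66 (limma-voom adjusted p = 0.00219). The interaction was called for Yars (1.01, adjusted p = 6.55e-04). The 12 endoplasmic reticulum chaperones and factors, targets of the ATF6 and XBP1 branches, all had negative values in both lines, with a median of -0.495 in 4T1 and -0.300 in 67NR cells. In 4T1 cells limma-voom and edgeR called 0 (9.34% and 8.86% of all genes in either direction) and DESeq2 5, all lower (26.6%). Without adjustment 9 had a p below 0.05 (51.2%), with Dnajb9 at -1.04 (limma-voom adjusted p = 0.00136). In 67NR cells limma-voom called Manf lower, from 164 ± 5.68 to 99.2 ± 6.87 CPM (log2 fold change -0.75, adjusted p = 8.79e-04). This was its 1 call in this list (0.389% of all genes). With samples of consecutive numbers as a block 0 genes were called in 67NR cells, so the Manf call was lost. The same held without vehicle sample 5 or 9 or CIX sample 6, 10 or 14. DESeq2 called 4 (9.00% of all genes), and 7 had an unadjusted p below 0.05 (32.8%). Sars and Dnajb9 were named after their values were seen.

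The values were also set beside the response element described at the start. Of members with a RefSeq window, the 10 that held the core and were tested in 4T1 cells had a median log2 fold change of 0.916 (-0.98 to 2.42, Nupr1 to Pck2), and the 20 without it 0.462 (-1.10 to 1.39, Slc38a2 to Atf5). In 67NR cells the medians were 0.849 for 8 members with the core and 0.354 for 20 without it. These are descriptions of few genes, and no test was made of them.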

How the data were processed

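Transcripts were quantified by the authors by quasi-alignment with salmon (version 0.12 per the labels) on Ensembl GRCm38, aggregated to genes with tximport and deposited as estimated counts of 33072 genes, neither normalized nor filtered. The tximport scaling is not given in the sources used here, and 0.0436% of the values above 0 were whole within 1e-06. All 16 columns were assigned from the labels. The expected counts were rounded for DESeq2, edgeR and voom. TPM was approximated with the mean transcript length in GENCODE vM21, and genes below a TPM of 1 in more than 3 samples of a comparison (for the interaction, in both lines) were left out. Differences were tested with limma-voom (limma 3.58.1, edgeR 4.0.16, R 4.3.3), the test the paper names, after TMM scaling, which was chosen here, and called at a Benjamini-Hochberg adjusted p below 0.001. At this threshold the paper reports more differentially expressed genes in CIX treated 4T1 cells than the 1089 called here. With all 16 samples in 1 fit 2460 were called, and the reason for the gap was not tested. Levels in CPM are scaled over all 16 samples, and fold changes come from the fit of each comparison. Alternatives were DESeq2 1.42.0, edgeR's quasi-likelihood test, size factors or no scaling in place of TMM, no TPM filter, all samples in 1 fit, sample quality weights, a threshold of 0.05, leaving out each sample and, added after the data were seen, a block of samples with consecutive numbers. The fits were tested on simulated data. Shared reads were judged from words of 31 bases found in more than 1 gene. The members and the other lists were chosen with earlier results of these data known. Values by sample are given for Atf4 and, in each role group, for up to 4 members called in a CIX comparison or in the interaction. All other members are given by group means, counts or ranges, and of the other lists up to 4 called genes are named. Ddit3, given by sample, and Sars and Dnajb9 fall outside this rule and were chosen after their values were seen. Replicates of a group differed by a chi-square of at least 18.0 per gene, so that each was counted as its own sample.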

Additional observations from a re-analysis of the deposited data

Results flagged for a closer look

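For each member and group, the highest and the lowest sample were compared with the nearest of the others by Dixon's ratio. For normal and independent values, chance exceeds its cut in about 1 of 20 groups, so that 7.2 of the 144 groups would be expected. There were 13, which is not read as an excess. Members moved together within samples, and some groups were near 0 CPM, where a few counts set the ratio. In 4T1 CIX sample 4, Cebpg was low at 38.3 CPM (others 71.1 to 76.7) and Vldlr at 12.2 CPM (others 19.6 to 20.9). In 4T1 CIX sample 12, Ppp1r15a was high at 75.7 CPM (others 24.6 to 32.2) and Psph at 120 CPM (others 88.5 to 91.3). In 67NR CIX sample 10, Aldh18a1 was high at 160 CPM (others 84.0 to 94.6) and Slc6a9 also at 160 CPM (others 38.0 to 52.8).

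Among the vehicle samples, Atf5 was high in 67NR sample 1 at 369 CPM, Ddit3 low in 4T1 sample 3 at 32.7 CPM and Slc6a9 high in 4T1 sample 11 at 102 CPM. The others are low levels of members not tested in 67NR cells: Atf3 in vehicle sample 5 at 0.178 CPM, Stc2 in vehicle sample 13 at 0.722 CPM, and Vldlr in vehicle sample 9 (0.0396 CPM) and CIX sample 2 (0.231 CPM).

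The response to CIX differed between the lines by the limma-voom interaction for Atf5, by 1.48 on the log2 scale, and for Pck2, by 1.39, both larger in 4T1 cells.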

How the results depend on the processing

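With limma-voom at 0.001, 5 members were called in 4T1 cells, 0 in 67NR cells, 2 in the interaction and 14 between the vehicle treated lines. In each of the following settings the share called of all genes is given beside the members. DESeq2's Wald test gave 16, 14 and 6 members for the first 3 comparisons (26.6%, 9.00% and 15.7% of all genes), sample quality weights 14, 1 and 6 (21.6%, 2.14% and 15.2%), and a threshold of 0.05 gave 18, 16 and 8 (42.7%, 17.8% and 29.4%). All 16 samples in 1 fit gave 10 in 4T1 and 1 in 67NR cells (23.4% and 1.22%). These compare with 9.34%, 0.389% and 7.86% of all genes at the settings of the report. Leaving out each sample gave 1 to 14, 0 to 1, 1 to 3 and 11 to 17 members in the 4 comparisons, where 2.44% to 8.84%, 0.00% to 0.60%, 5.14% to 8.38% and 35.2% to 42.2% of all genes were called. The fit without 4T1 CIX sample 4 gave the 14 in 4T1 cells, and those without 4T1 vehicle sample 7 or 15 or CIX sample 8 gave 1. Apart from the block described below, the other settings kept each of these counts within 1.5 times. No called value changed sign in any setting. Phgdh summed with the genes sharing its words, a setting added after the data were seen, lost its call between the vehicle treated lines at 0.42. The labels share no replicate number between groups, but each run of 4 consecutive sample numbers holds 1 sample of every group, and a replicate block by these runs was added after the data were seen. It gave 6, 0 and 3 members in the CIX comparisons (9.80%, 0.00% and 8.66% of all genes) and 7 between the vehicle treated lines (27.2%, against 40.0% without the block). Deviations from the group means correlated by 0.04 to 0.36 within the runs in 4T1 cells, where every value was positive. They correlated by -0.07 to 0.12 in 67NR cells and by -0.24 to 0.22 between the vehicle treated lines. The labels state no pairs, and the main fits took none. Whether the vehicle and CIX samples of a run shared handling was not tested. With 4 samples per group, differences under about the printed intervals could not be seen, and members with few counts are limited by depth.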
